A study of Mus musculus with 16 samples.

Results

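The 8 genes described here, Prox1, Dsp, C1ql2, Tdo2, Wfs1, Fibcd1, Spink8 and Iyd, are used in the mouse brain as markers of single fields of the hippocampus, though not all are restricted to it. They were chosen by gene symbol among the 40481 genes of the counts table: 4 for the granule cells of the dentate gyrus, 3 for the pyramidal cells of CA1 and 1 for those of CA3. Brain RNA was sequenced from 16 male C57BL mice of 18 months of age, given as C57BL/6J in the study's methods. In 8 mice, adropin(34-76), the putative secreted part of the peptide, was injected intraperitoneally once a day at 90 nmol/kg/d. The other 8 received the saline diluent, which like the peptide solution was given as a daily injection. All 16 mice went through behavioral testing under treatment and were fasted before the brain was frozen. The comparison asks whether these genes differed with the peptide, and how far they differed between mice of the same group.

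The hippocampus is a folded sheet of neurons that serves spatial and episodic memory. Granule cells of the dentate gyrus receive input from the entorhinal cortex and send mossy fibers to CA3, whose pyramidal cells project in turn to CA1, the main output field. Each field has its own set of marker genes, so RNA from a piece of brain carries more or less of each set depending on which fields the piece held. In such bulk tissue, fewer cells of a type and less RNA per cell cannot be told apart.

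Total counts ranged from 35185051 to 70314050 in adropin-treated mice and from 35026503 to 47245785 in saline-treated mice. The labels name the tissue as brain, and which piece of brain was taken from each mouse is not given in the sources used here. Genes fixed as pan-neuronal, among them Slc17a7 and Gad1, summed to between 6880 and 8374 CPM (counts per fixed library total, after TMM normalization). Cortical projection neuron genes summed to between 449.7 and 964.3 CPM, so genes of the forebrain were detected in every mouse. Of the 8 midbrain and hindbrain genes, Hoxb5 had no count in 15 of 16 mice, 1 gene passed the filter, Tph2 (0.307 to 1.54 CPM), and the list summed to at most 3.14 CPM. Saline-treated mouse 8_3 stood apart. Gabra6, a gene of cerebellar granule cells, was at 34.9 CPM in this mouse and at most 0.242 CPM in the other 15, and the 7 genes fixed for choroid plexus epithelium summed to 2474 CPM. For several results of the members that moved on leaving out this mouse, the value without it is given too.

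The dentate gyrus genes had different roles and different levels. Prox1, a homeodomain factor that sets granule cell identity, lies on chromosome 1 of GRCm38 from 190118035 to 190170714 on the minus strand. It was between 10.1 and 21.8 CPM in adropin-treated mice, with a median of 16.6, and between 11.4 and 34.3 CPM in saline-treated mice, with a median of 17.3. The groups overlapped, and the highest values were those of saline-treated mice 5_3 and 2_3. C1ql2, a secreted organizer of mossy fiber synapses, lies on the same chromosome from 120340582 to 120343174 on the plus strand. It ranged from 4.99 to 31.5 CPM (median 11.4) with adropin and from 8.83 to 43.0 CPM (median 17.2) with saline. Mice 2_3 and 5_3 were again the highest, and the saline median was above 7 of the 8 values with adropin.

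Dsp encodes desmoplakin, which anchors intermediate filaments at desmosomes in epithelia and heart, and lies on chromosome 13 from 38151294 to 38198577 on the plus strand. It was low and the most uneven of the members, at 0.378 to 4.12 CPM (median 0.757) with adropin and 0.512 to 10.65 CPM (median 1.57) with saline, or 16 to 470 counts per mouse. Of the saline-treated mice, 3 were above every adropin-treated mouse, and the other values were mixed. Tdo2 encodes tryptophan dioxygenase, which opens the kynurenine pathway and is best known from liver. It lies on chromosome 3 from 81957090 to 81976202 on the minus strand and had 24 to 86 counts per mouse. Its level was 0.567 to 1.27 CPM (median 1.10) with adropin and 0.658 to 1.86 CPM (median 1.07) with saline. The highest Tdo2 value belonged to mouse 8_3 and the lowest to adropin-treated mouse 3_3.

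Of the CA1 genes, Wfs1 encodes wolframin, a membrane protein of the endoplasmic reticulum, and is also known from neurons of the superficial cortex, amygdala and ventral striatum. It lies on chromosome 5 from 36966104 to 36989205 on the minus strand and was the most abundant member, at 95.1 to 204.9 CPM (median 133.7) with adropin and 70.0 to 211.7 CPM (median 142.8) with saline. The groups covered nearly the same range. Fibcd1 encodes a membrane receptor that binds acetylated sugars such as chitin, and lies on chromosome 2 from 31813290 to 31846005 on the minus strand. It ranged from 11.1 to 79.2 CPM (median 22.3) with adropin and from 10.3 to 88.8 CPM (median 48.3) with saline. In the adropin group, 5 mice were at or below 28.0 CPM and 3 at or above 55.15 CPM, with no mouse in between. Spink8, a Kazal-type serine protease inhibitor, lies on chromosome 9 from 109812280 to 109826633 on the plus strand. It ranged from 0.372 to 5.01 CPM (median 1.31) with adropin and from 0.520 to 5.44 CPM (median 3.52) with saline. The same 3 adropin-treated mice that were high in Fibcd1, namely 3_3, 4_3 and 5_5, were high in Spink8.

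The CA3 gene Iyd encodes iodotyrosine deiodinase, the enzyme that recovers iodide in the thyroid, and lies on chromosome 10 from 3540240 to 3554877 on the plus strand. It had 0 to 30 counts per mouse and was at most 0.680 CPM, in mouse 5_3. No mouse passed 1 CPM, so Iyd was left out of the fit across genes. CA3 thus had no usable member, and differences in Iyd were not detectable at this depth.

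**Figure D1:**
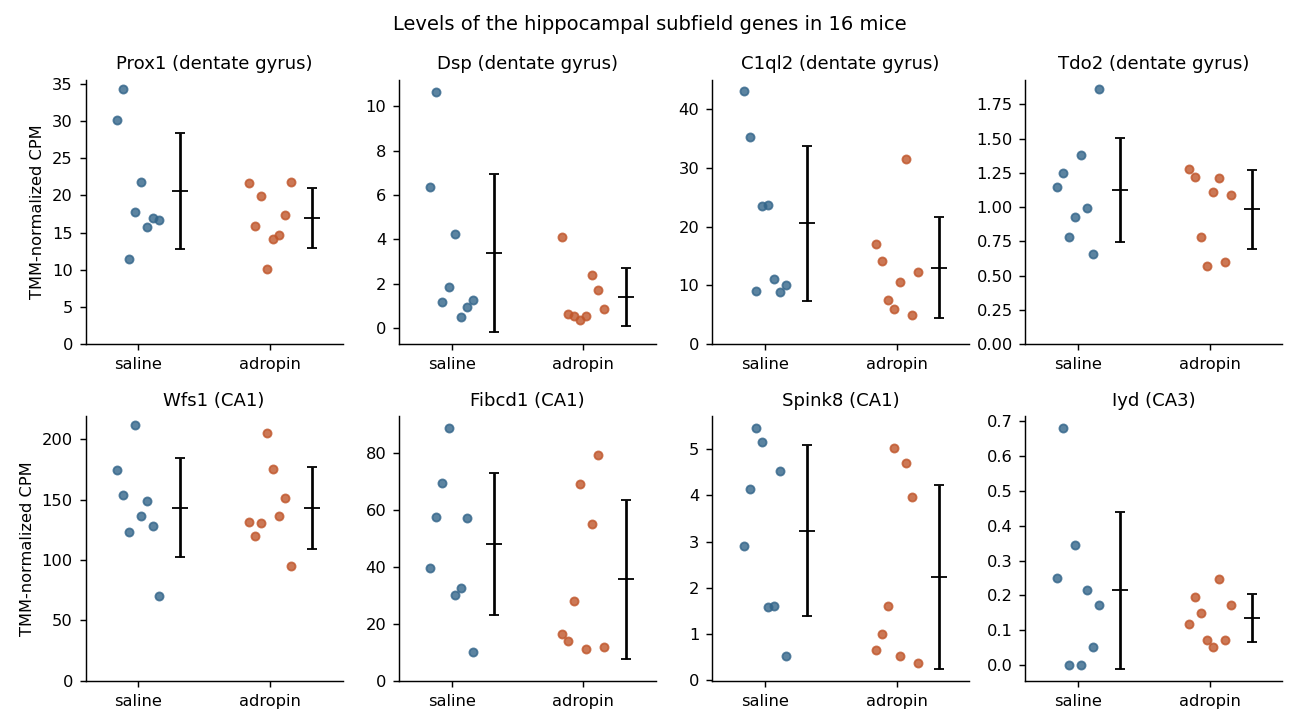
Levels of the 8 members in TMM-normalized CPM, 1 panel per gene with its own vertical axis; points are mice and the black mark and bar are the mean and SD of 8 mice. Saline and adropin points overlap in every panel, and the highest Prox1, Dsp and C1ql2 points are saline-treated mice.

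Levels can be compared between genes only after division by the length of the annotated exons. Over all 16 mice, Wfs1 was at 37.8 ± 9.62 CPM per kb (SD, n = 16), Fibcd1 at 8.82 ± 5.55 and C1ql2 at 8.39 ± 5.69. Spink8 followed with 3.33 ± 2.34 and Prox1 with 2.24 ± 0.751 CPM per kb. The lowest were Tdo2 at 0.272 ± 0.0863, Dsp at 0.247 ± 0.288 and Iyd at 0.108 ± 0.102 CPM per kb. Wfs1 stood above Fibcd1, and Prox1 above Tdo2, by more than the sum of their SDs. The other neighbors in this order differed by less. Within mice, Fibcd1 was above C1ql2 in 7 of 16, C1ql2 above Spink8 in 12, Spink8 above Prox1 in 8, Tdo2 above Dsp in 11 and Dsp above Iyd in 10. Fibcd1 was above Spink8 in all 16 mice. Prox1 overlaps the opposite-strand genes Gm28172 and Prox1os, and Dsp overlaps Gm10129. Whether counting used strand is not given in the sources used here, so these 2 genes are uncertain by what their partners added.

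The promoters of 4 members whose levels moved together with another member are shown, as the 250 bases before the RefSeq start on GRCm38.p6. Capitals mark the E-box CANNTG, the core motif of basic helix-loop-helix factors, which reads the same on both strands. No promoter of Spink8 was used here, and the upstream of the 2 starts listed for Prox1 is printed.
Prox1 (chr1:190170828-190171077, minus strand): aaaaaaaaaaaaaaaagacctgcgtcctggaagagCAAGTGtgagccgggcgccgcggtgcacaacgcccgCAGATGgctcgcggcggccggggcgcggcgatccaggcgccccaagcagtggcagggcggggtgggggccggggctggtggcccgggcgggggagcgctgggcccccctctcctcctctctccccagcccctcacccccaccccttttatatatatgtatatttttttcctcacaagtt
Dsp (chr13:38151044-38151293, plus strand): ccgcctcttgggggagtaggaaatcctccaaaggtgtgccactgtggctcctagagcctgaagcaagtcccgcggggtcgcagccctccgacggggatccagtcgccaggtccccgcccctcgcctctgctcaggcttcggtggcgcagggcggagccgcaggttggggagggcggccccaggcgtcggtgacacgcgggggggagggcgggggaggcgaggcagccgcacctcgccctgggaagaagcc
C1ql2 (chr1:120340332-120340581, plus strand): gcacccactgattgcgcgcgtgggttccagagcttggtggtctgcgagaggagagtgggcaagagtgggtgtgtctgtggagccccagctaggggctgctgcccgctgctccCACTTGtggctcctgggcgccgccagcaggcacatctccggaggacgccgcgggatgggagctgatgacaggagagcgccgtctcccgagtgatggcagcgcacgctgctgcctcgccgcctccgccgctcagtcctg
Fibcd1 (chr2:31846006-31846255, minus strand): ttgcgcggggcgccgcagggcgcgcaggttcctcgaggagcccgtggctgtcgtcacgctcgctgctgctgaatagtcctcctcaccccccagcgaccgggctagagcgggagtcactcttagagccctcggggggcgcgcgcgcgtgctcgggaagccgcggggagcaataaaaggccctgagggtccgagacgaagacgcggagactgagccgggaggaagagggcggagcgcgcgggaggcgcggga
The printed window of Prox1 held 2 E-boxes and that of its second start 0. C1ql2 held 1, while Dsp and Fibcd1 held none. The motif occurred in 66.2% of the 32851 promoters of this length, so its presence set no member apart. The G and C content of the 4 was 64.8% for Prox1, 72.4% for Dsp, 68.8% for C1ql2 and 71.6% for Fibcd1, against a median of 52.4% over all promoters. It was 69.6% for Wfs1, 48.4% for Iyd, 46.4% for Tdo2 and 56.0% for the second start of Prox1.

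No member passed the test between the groups. Of the 14949 genes that passed the filter on low counts, 3.99% reached an unadjusted p below 0.05 in edgeR's quasi-likelihood test, and 2.13% did so with the lower level in adropin. Among the 7 members tested the count was 0 in either direction. A fold change above 1.5 together with such a p, the cut-off the study used, was reached by 0.421% of all genes and by 0 of the 7 members. After Benjamini-Hochberg adjustment over all genes, no p of the edgeR test was below 0.05 (lowest 0.387).

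All 7 members tested had a log2 fold change below 0, where 50.75% of all genes tested did, and their median was -0.43 against -0.0019 over all genes. Some members were correlated between mice, as given below, so the 7 signs are not 7 separate observations. Dsp had the largest difference, at 1.396 ± 1.30 CPM in adropin and 3.37 ± 3.55 CPM in saline (SD over 8 mice each). The fitted log2 fold change was -1.24 ± 0.60 (SE, edgeR adjusted p = 0.874). Its unadjusted edgeR p was 0.0540, and the two-sided exact permutation test of the mean log2 level over 12870 divisions of the mice gave p = 0.141. The SD within the saline group was larger than the difference of the means.

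C1ql2 was at 13.0 ± 8.53 CPM in adropin and 20.5 ± 13.1 CPM in saline (SD over 8 mice each), with a fitted log2 fold change of -0.66 ± 0.40 (SE, edgeR adjusted p = 0.874; exact permutation p = 0.177). Prox1 was at 16.95 ± 4.08 against 20.6 ± 7.79 CPM, a log2 fold change of -0.28 ± 0.20 (SE, edgeR adjusted p = 0.874; exact permutation p = 0.314). Tdo2 was at 0.983 ± 0.289 against 1.13 ± 0.381 CPM, with a log2 fold change of -0.20 ± 0.22 (SE, edgeR adjusted p = 0.877; exact permutation p = 0.439). Without mouse 8_3 the log2 fold change of Tdo2 was -0.056. None of these 3 differences was larger than the spread between mice.

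In CA1 the members differed in size but not in outcome. Wfs1 was at 143.1 ± 34.0 CPM in adropin and 143.3 ± 41.1 CPM in saline (SD over 8 mice each), with a fitted log2 fold change of -0.0019 ± 0.18 (SE, edgeR adjusted p = 0.998; exact permutation p = 0.913). The sign of this value turned in several alternatives and carries no direction. Fibcd1 was at 35.6 ± 27.9 against 48.2 ± 25.0 CPM, a log2 fold change of -0.43 ± 0.45 (SE, edgeR adjusted p = 0.877; exact permutation p = 0.263). Spink8 was at 2.23 ± 1.98 against 3.24 ± 1.85 CPM, a log2 fold change of -0.54 ± 0.53 (SE, edgeR adjusted p = 0.877; exact permutation p = 0.229). With single mice left out, the log2 fold change ranged from -0.71 to -0.25 for Fibcd1 and from -0.82 to -0.38 for Spink8, and none passed. The difference of mean log2 levels was -0.62 for Fibcd1 and -0.80 for Spink8. Without mouse 8_3 it was -0.90 (exact permutation p = 0.0870) and -1.12 (exact permutation p = 0.086). Iyd was at 0.135 ± 0.0693 against 0.214 ± 0.225 CPM (exact permutation p = 0.902), and no fold change was fitted.

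The count of 0 members past the cut-off rested on Dsp, whose p lay close to the threshold. It became 1, with Dsp past the cut-off, by DESeq2 (unadjusted p = 0.0490), with library size in place of TMM (edgeR unadjusted p = 0.0461) and without the filter (edgeR unadjusted p = 0.0375). Of all 14949 genes, 17 were higher and 46 lower past the cut-off in the main fit. They were 16 and 47 by DESeq2, 16 and 52 with library size, and 569 and 784 of 30210 without the filter. The same happened on leaving out mouse 8_3 of the saline group (log2 fold change -1.36, edgeR unadjusted p = 0.0394), and likewise mouse 1_3, 5_4, 6_1, 7_1 or 8_1. In these fits 10 to 31 of the 14949 genes were higher and 36 to 56 lower past the cut-off. The difference in Dsp was smallest without the saline-treated mice that were highest in it. Its log2 fold change was -0.70 without mouse 5_3 (edgeR unadjusted p = 0.225) and -1.06 without mouse 2_3 (edgeR unadjusted p = 0.108). Prox1 was at -0.13 without mouse 5_3, and C1ql2 at -0.42 without mouse 2_3. Without adropin-treated mouse 4_3 both Dsp and C1ql2 passed, C1ql2 with a log2 fold change of -0.98 (edgeR unadjusted p = 0.0164). In that fit 45 of the 14949 genes were higher and 62 lower past the cut-off. By the unadjusted p alone 921 were higher and 524 lower, against 278 and 318 with all mice.

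The other genes of the hippocampus fixed as lists were less uniform in sign. Of 35 such genes 32 were tested, and 4 had an unadjusted p below 0.05, all lower in adropin, where 2.13% of all genes were lower by the same rule. Beside the granule cell members, 12 more granule cell genes had a median log2 fold change of -0.07 (8 of 12 below 0), and 2 of them had such a p. They were Lct, encoding lactase (1.70 ± 1.16 against 4.03 ± 3.61 CPM, SD, n = 8 each; log2 fold change -1.23, SE 0.58, edgeR adjusted p = 0.874), and Il16, encoding a cytokine precursor (2.00 ± 0.575 against 4.43 ± 4.32 CPM; log2 fold change -1.15, SE 0.41, edgeR adjusted p = 0.874). Both were past the fold change cut-off, by the unadjusted p alone. The exact permutation test gave p = 0.307 for Lct and p = 0.100 for Il16. Without mouse 8_3 the 4 genes became 2, as Il16 and Homer3, given below, no longer passed. In that fit 224 of the 14949 genes were lower at such a p.

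Among 6 further CA1 genes none passed, the smallest unadjusted p being that of Pou3f1, a POU-domain factor (log2 fold change -0.32, SE 0.16, edgeR unadjusted p = 0.0630). Of 5 CA2 genes tested, Amigo2, a cell adhesion molecule, was lower in adropin at 6.08 ± 1.85 against 7.94 ± 2.24 CPM (SD, n = 8 each; log2 fold change -0.39, edgeR adjusted p = 0.874; exact permutation p = 0.0581). Of 6 CA3 genes, Homer3, a postsynaptic scaffold protein, was lower with a log2 fold change of -0.60 (SE 0.25, edgeR adjusted p = 0.874; exact permutation p = 0.0844). Of 3 genes of newly formed granule neurons that could be tested none passed, with Neurod1, a factor of granule neuron differentiation, at -0.46 (SE 0.23, edgeR unadjusted p = 0.0666). The medians of these lists lay between -0.18 and -0.0030, so the larger values were those of a few genes.

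**Figure D2:**
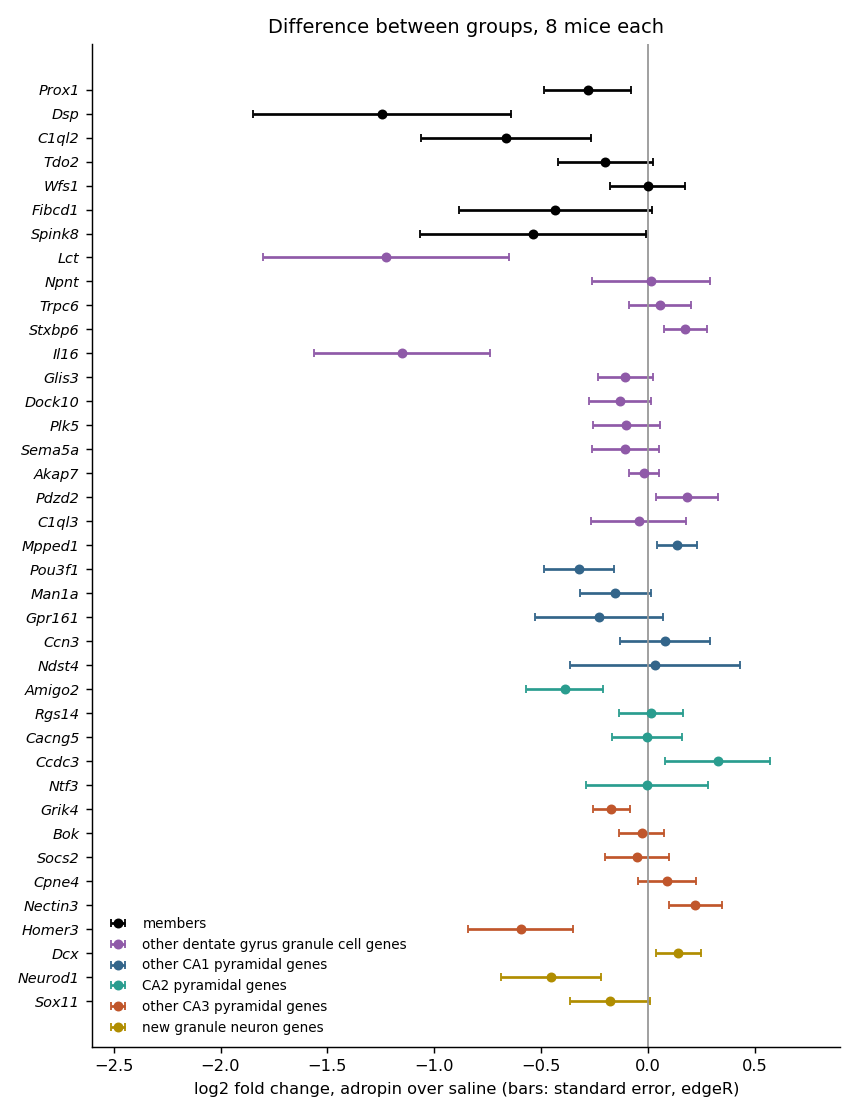
Log2 fold change of adropin over saline for the 7 members tested and 32 other hippocampal genes, with the standard error of edgeR's fit as bars; 8 mice per group. The values of the members lie below 0, from -1.24 for Dsp to -0.0019 for Wfs1, and Lct and Il16 are the only other genes below -1.

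Some markers of other tissue and cell classes also differed between the groups by the unadjusted p, each with an edgeR adjusted p of 0.874. Of 7 choroid plexus genes 5 were tested, and all 5 were lower in adropin at an unadjusted p below 0.05, their list summing to 11.4 to 73.9 CPM in adropin and 12.8 to 2474 CPM in saline. Without mouse 8_3, 2 of these 5 passed. Of 8 cortical projection neuron genes 2 were higher in adropin and none lower, with 544.3 to 964.3 CPM in adropin and 449.7 to 772.0 CPM in saline. Of 8 thalamic genes 2 were lower, with 66.2 to 88.4 CPM against 63.4 to 124.9 CPM. Without mouse 8_3, 1 cortical and 1 thalamic gene passed. Of 3 cerebellar genes tested 1 was lower, Car8 (exact permutation p = 0.960), and none without mouse 8_3. Of the other cell classes, 1 of 4 microglia genes, Cx3cr1, was higher in adropin, also without mouse 8_3, and none of 4 oligodendrocyte genes passed, with all 4 below 0 (median log2 fold change -0.23). Each of these counts is by the unadjusted p, which 3.99% of all genes passed. The part of these differences in the values of the members was not tested.

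The members were uneven between mice. The SD of the log2 level within groups had a median of 0.196 over the genes tested. It was 1.33 for Dsp, 1.30 for Spink8 and 1.08 for Fibcd1, and only 7, 8 and 19 of the 14949 genes had a larger one. C1ql2 had an SD of 0.89, with 53 genes above it. Tdo2, Prox1 and Wfs1 had SDs of 0.45, 0.45 and 0.41 and were above 93.8%, 93.7% and 90.8% of the genes. The highest mouse exceeded the lowest 28.2-fold for Dsp, 14.6-fold for Spink8, 8.63-fold for C1ql2 and 8.62-fold for Fibcd1, and 3.02-fold to 3.41-fold for Wfs1, Tdo2 and Prox1. Without mouse 5_3, the highest in Dsp, its ratio was 16.8. Without mouse 8_3 the ratio was 2.43 for Tdo2 and 2.23 for Wfs1. The lowest mice had 16 counts for Dsp and 13 for Spink8, and the part of counting error in these ranges was not tested.

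Of 28 pairs of members 5 were correlated between mice, 3 of them within a field and 2 between fields. Over the 16 mice, with group means subtracted, Fibcd1 and Spink8 rose and fell together with Pearson's r = 0.970 and Spearman's rho = 0.953 (permutation p = 1e-05 for both, the smallest that 100000 permutations can give; adjusted over 28 pairs p = 0.00028). The relation held in the adropin group (r = 0.964) and in the saline group (r = 0.980), and r was 0.966 without the 2 mice farthest from the median. It was also called with each single mouse left out.

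Wfs1 followed Fibcd1 (r = 0.632, rho = 0.509) and Spink8 (r = 0.603, rho = 0.438) less closely, and neither relation passed the adjustment (permutation adjusted p = 0.0570 and p = 0.0608). Without mouse 8_3, the lowest in Wfs1, r was 0.437 and 0.420. Both relations passed when mouse 4_1, 4_3, 5_4 or 8_1 was left out, with r up to 0.772 and 0.727.

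All 6 pairs of dentate gyrus genes had positive r, from 0.388 to 0.731, and 2 passed. They were Dsp with C1ql2 (r = 0.731, rho = 0.729, permutation p = 0.00304, adjusted p = 0.0213; 0.692 without the 2 farthest mice) and Prox1 with Dsp (r = 0.731, rho = 0.735, permutation p = 0.00267, adjusted p = 0.0213; 0.562 without the 2 farthest mice). In the saline group r was 0.892 and 0.878 for these pairs, and in the adropin group it was 0.519 and 0.477. The difference between the groups was not tested. Without mouse 5_3, the highest in both genes, Prox1 with Dsp had r = 0.638 and did not pass.

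Across the fields, the 12 pairs of a dentate gyrus with a CA1 gene had a median r of -0.063. Those of Prox1, Dsp and C1ql2 with the CA1 genes ranged from -0.253 to 0.188 and none passed. With Wfs1 the groups differed in sign: in adropin r was -0.816 for Prox1, -0.294 for Dsp and -0.423 for C1ql2. In saline it was 0.343, 0.312 and 0.602, and this difference was not tested. Tdo2 ran against 2 of the 3 CA1 genes, with r = -0.748 to Fibcd1 (rho = -0.694, permutation p = 0.00191, adjusted p = 0.0213) and r = -0.698 to Spink8 (rho = -0.641, permutation p = 0.00477, adjusted p = 0.0267). By rho the pair with Spink8 did not pass (permutation adjusted p = 0.0799), nor by r without mouse 1_3 or 5_5. With Wfs1 it had r = -0.495 (rho = -0.347, permutation adjusted p = 0.155) and did not pass. Without the 2 farthest mice r was -0.729 to Fibcd1 and -0.636 to Spink8. Without mouse 8_3, which had the highest Tdo2 and the lowest Fibcd1, they were -0.662 and -0.604 and no longer passed. None of the 7 pairs with Iyd passed.

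The 5 pairs that passed became 1 when adropin-treated mouse 3_3 was left out, that of Fibcd1 with Spink8, and 8 when adropin-treated mouse 4_3 was left out. Without mouse 3_3, r was 0.708 for Dsp with C1ql2, 0.704 for Prox1 with Dsp and -0.703 for Tdo2 with Fibcd1. Without mouse 8_3 the number was 4, as the Tdo2 pairs with Fibcd1 and Spink8 were lost and that of C1ql2 with Tdo2 was gained (r = 0.822).

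**Figure D3:**
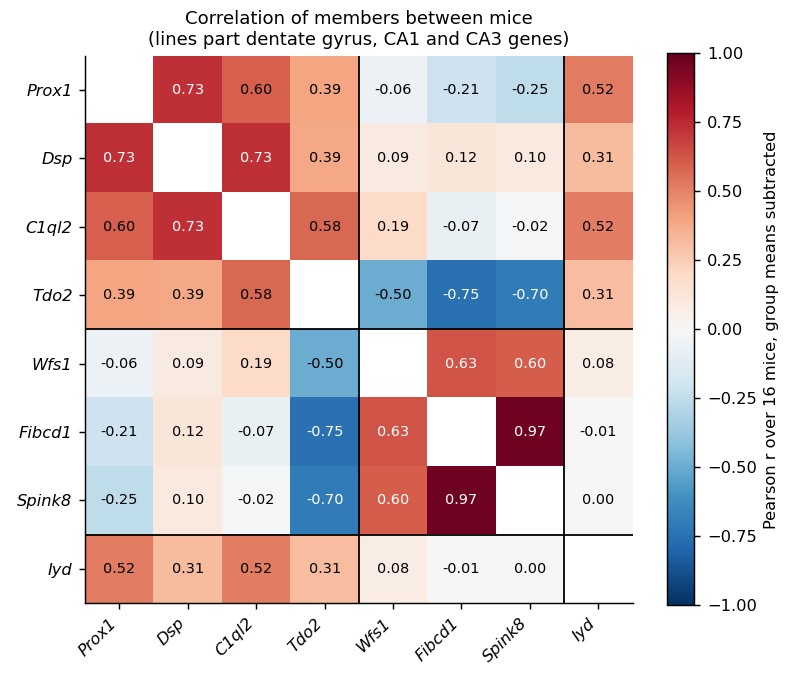
Pearson's r between members over 16 mice, on log2 TMM-normalized CPM with group means subtracted; black lines part the dentate gyrus, CA1 and CA3 genes. The blocks within the dentate gyrus and within CA1 are positive throughout, up to 0.970 for Fibcd1 with Spink8, while Tdo2 is negative against the 3 CA1 genes.

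**Figure D4:**
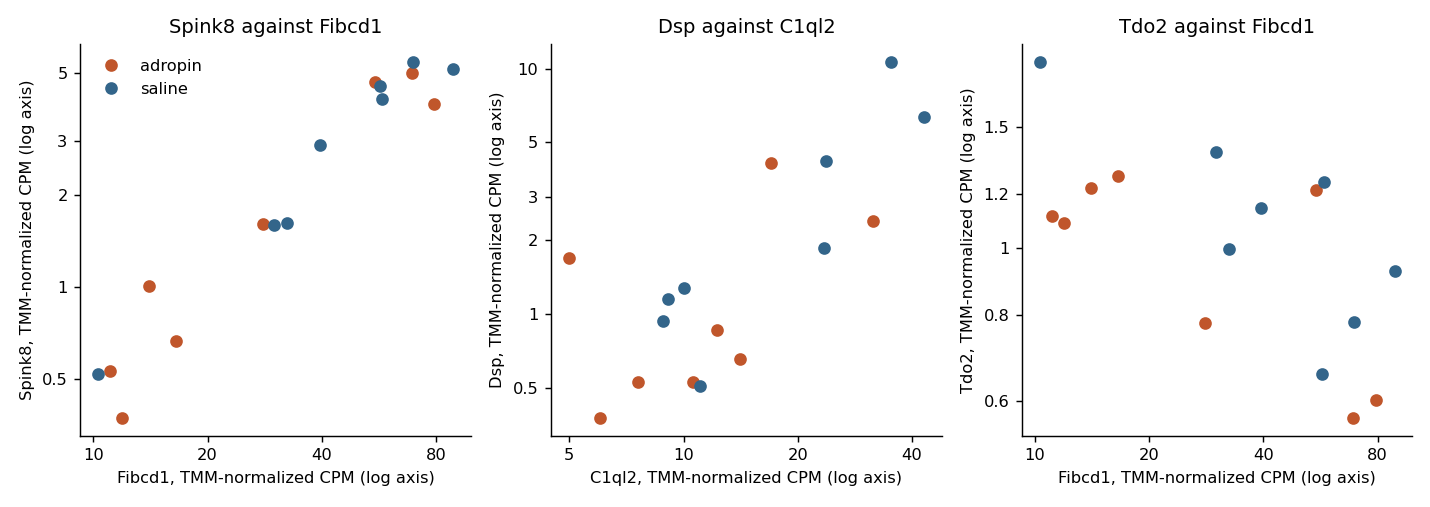
Levels of 3 pairs of members in TMM-normalized CPM, both axes logarithmic; each point is a mouse, colored by group. Spink8 rises with Fibcd1 in both groups (r = 0.970), Dsp rises with C1ql2 with more scatter (r = 0.731), and Tdo2 falls as Fibcd1 rises (r = -0.748).

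A score per mouse was formed for each field as the mean z-score of its members tested, 4 for the dentate gyrus and 3 for CA1. The dentate gyrus score was highest in saline-treated mice 5_3 (1.56) and 2_3 (1.33) and lowest in adropin-treated mouse 3_3 (-1.54). The CA1 score was highest in saline-treated mouse 6_1 (1.30), followed by mouse 3_3 (1.14), and lowest in saline-treated mouse 8_3 (-1.81) and adropin-treated mouse 7_4 (-1.48). Mouse 3_3 thus had the lowest dentate gyrus and the second CA1 score, with Prox1 at 10.1 CPM, the lowest of all mice, and Wfs1 at 204.9 CPM. In mouse 7_4 Prox1 was at 21.8 CPM and Wfs1 at 95.1 CPM.

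By group, the dentate gyrus score was -0.294 ± 0.709 in adropin and 0.294 ± 0.896 in saline, and the CA1 score was -0.186 ± 0.902 and 0.186 ± 0.914 (SD, n = 8 each). In both fields the groups overlapped over most of their range. The difference in CA1 score, -0.373, was -0.714 without mouse 8_3 and -0.201 without mouse 7_4. The scores hold the members themselves, so no test was made on them.

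**Figure D5:**
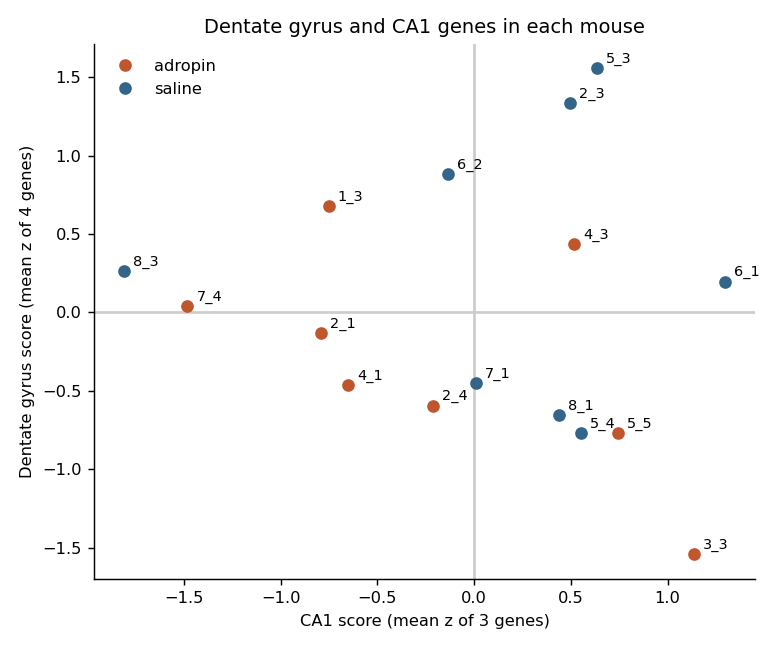
Dentate gyrus score against CA1 score in each of the 16 mice, both as mean z-scores without unit; points are labelled by mouse and colored by group. Mouse 3_3 sits at the lower right and mice 8_3 and 7_4 at the far left, the lower left quadrant holds 3 adropin-treated mice alone, and the other quadrants hold mice of both groups.

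Other genes followed the same patterns, most of all in CA1. The 6 genes most like the CA1 score, among those over 2 CPM on average, were Sertm1 (r = 0.974 over 16 mice, group means subtracted), Camkv (0.933), Scn3b (0.932), St6galnac5 (0.929), Lrrtm1 (0.913) and Htr1a (0.912). Camkv encodes a kinase-like protein of synapses, Scn3b a beta subunit of sodium channels and Htr1a a serotonin receptor. In all, 106 of 13505 genes had an r above 0.8 with the CA1 score. With the dentate gyrus score 2 genes did, Sema5a (0.862), a semaphorin, and Gm5560 (0.815). The next were Vav3 (0.776), Cd84 (0.775), Bloc1s3 (0.766) and Pold2 (0.756). Of the 12 further granule cell genes, 10 had a positive r with the dentate gyrus score, with a median of 0.441 and a range from -0.261 for C1ql3 to 0.862 for Sema5a. The 6 further CA1 genes had r from 0.122 for Pou3f1 to 0.862 for Ndst4 with the CA1 score (median 0.762). These values share libraries and scaling and are given as a description.

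Markers of other tissue were set against the members in the same way. Of 70 relations of the 7 members tested with 8 lists of other brain regions, total counts and the ribosomal pseudogene Gm42418, none passed the adjustment, the smallest adjusted p being 0.175 (permutation, 100000 resamples). The strongest were Wfs1 with the choroid plexus list (r = -0.692, rho = -0.471, permutation p = 0.0119; -0.349 without the 2 farthest mice) and Prox1 with the thalamic list (r = 0.668, rho = 0.382, permutation p = 0.0114; 0.417 without them). Spink8 ran against the cortical list (r = -0.650, rho = -0.638, permutation p = 0.0101; -0.585 without them) and against the cerebellar list (r = -0.649, rho = -0.579, permutation p = 0.00714; -0.505 without them). Each list was taken as the summed level of its genes. Most of the cerebellar sum was Itpr1, at a mean of 486.3 CPM in adropin and 408.4 CPM in saline. The relation thus follows Itpr1 more than the other genes of that list. Total counts gave r between -0.064 and 0.477 with the members.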

How the data were processed

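RNA from brain tissue of 16 mice was poly-A selected and sequenced as paired reads. Per the paper's methods, reads were aligned with STAR to an Ensembl primary assembly, and uniquely aligned reads were counted per gene with featureCounts. The counts the authors deposited are whole numbers with a different total in each mouse. The deposited CPM were not used. Of 40757 entries, 276 repeats were dropped. The number pair in each label names the mouse (its meaning is not given in the sources used here), and each mouse was taken as 1 replicate.

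TMM factors were computed in edgeR 4.0.16 (R 4.3.3). The filter asked for over 1 CPM in 7 or more mice, and 355 ribosomal RNA genes were left out. The quasi-likelihood test was fitted on all 14949 genes with no covariate, and p-values were adjusted over all of them. Single members were tested by two-sided exact permutation of log2 CPM (prior count 2), which could reach p = 0.000155. Correlations used 100000 two-sided permutations within groups, or 20000 with a mouse left out. On simulated counts with 200 genes changed 2-fold, edgeR recovered 194 and called 8 unchanged genes. The 200 were drawn from all genes tested, whose median coefficient of variation between mice was 0.136 in edgeR's estimate. For the members it ran from 0.248 (Wfs1) to 0.799 (Dsp), so this recovery does not carry over to them.

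Alternatives were limma-voom (limma 3.58.1), DESeq2 1.42.0, other size factors and filters, the label numbers as blocks, other prior counts and each mouse left out. Coordinates and exon lengths are from GENCODE M21 on GRCm38, and promoters, found for 7 of 8 members, from RefSeq. Members and lists were chosen with earlier results of these data known. All members are named, as are genes of the hippocampal lists with an unadjusted p below 0.05 or the smallest of their list, and the 6 genes most like each score. The lowest counts per mouse were those of Iyd, Spink8, Dsp and Tdo2, and how far depth limits their precision was not tested.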

Additional observations from a re-analysis of the deposited data

Results flagged for a closer look

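C1ql2 in adropin-treated mouse 4_3, at 31.54 CPM, lay far from the other mice of its group, the next highest being 16.96 CPM. Its gap to the nearest value, as a share of the group's range, was above Dixon's critical value for 8 samples. The ratio was taken on CPM, and log2 levels were not tested in this way. It was 1 of 16 groups compared in this way (8 members in each treatment group). Chance alone would mark about 1 in 20 if levels were normally distributed. Prox1 in the same mouse was at 14.7 CPM and Dsp at 2.40 CPM, both inside the range of the group.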

How the results depend on the processing

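Counts of members past the cut-off, and of members with an unadjusted p below 0.05, were both 0 and became 1 by DESeq2, with library size only and with no filter, and 0 to 2 with single mice left out. They stayed at 0 by limma-voom, with DESeq2 size factors and with at least 10 counts in every mouse. With the first label number as replicate block the counts were 2 (Dsp, log2 fold change -1.96, edgeR unadjusted p = 0.0316; C1ql2, -1.50, edgeR unadjusted p = 0.0165), and with the second label number as replicate block 1 (Dsp, -1.13, edgeR unadjusted p = 0.0445). Over all 14949 genes, 34 were higher and 60 lower past the cut-off with the first-number block, and 11 and 53 with the second. Deviations of mice from different groups that share the first number correlated at -0.272 to 0.217 (5 pairs, 2 over 0.1). Those sharing the second correlated at -0.561 to 0.299 (17 pairs, 7 over 0.1). No pairs without a shared number were set beside these, so whether the numbers mark a batch was not tested.

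Wfs1 turned to a log2 fold change of 0.023 by limma-voom and 0.034 with the second-number block, was -0.295 with the first-number block, and ranged from -0.10 to 0.10 with single mice left out (difference of mean log2 levels -0.12 to 0.11). The difference in Iyd turned to 0.25 with a prior count of 0.5 and ranged from -0.35 to 0.22 with single mice left out. The other 6 members kept a log2 fold change below 0 in every alternative run, but its size moved: with the second-number block it was -0.96 for Fibcd1, -1.05 for Spink8, -0.38 for C1ql2 and -0.018 for Tdo2, with the first-number block -0.95 for Spink8, and by limma-voom -0.82 for Spink8. With single mice left out, Fibcd1 ranged from -0.71 to -0.25, Spink8 from -0.82 to -0.38, Dsp from -1.75 to -0.70, C1ql2 from -0.98 to -0.42, Prox1 from -0.37 to -0.13 and Tdo2 from -0.29 to -0.056. Correlated pairs numbered 5 and ranged from 1 to 8 with single mice left out, and they were 5 with library size only, with group means kept and with a prior count of 0.5, and 4 by Spearman's rho. The cause of these changes was not tested. Counts were as low as 16 for Dsp, 24 for Tdo2, 13 for Spink8 and 0 for Iyd, and how far this limits these members was not tested.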
